A study of Homo sapiens with 120 samples.

Results

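The genes described here encode the lysosome and its proton pump. They form a list of 41 genes that was drawn up by function and split by role into 17 lysosomal enzymes, 11 membrane and trafficking proteins and 13 subunits of the proton pump. Each was represented by the brightest probe annotated to it, which gave values for 39 of the 41, among 20046 genes in all; 14 of the 39 have more than 1 probe. The tetraspanin CD63 and the pump subunit ATP6V0C have no probe annotated to them in the tables used here and are not analysed here. The classes are broad: TFEB, a transcription factor, is counted with the membrane and trafficking proteins, and PSAP, the precursor of the saposins, with the enzymes.

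Lysosomes are acidic compartments in which enzymes break down proteins, lipids, sugars and whatever the cell has taken up, particles included. The proton pump, or V-ATPase, acidifies them: its V1 sector, facing the cytosol, splits ATP, and its V0 sector, set in the membrane, carries the protons. The transcription factor TFEB enters the nucleus when lysosomes are stressed or nutrients are short, and it switches on many genes of lysosomal enzymes and pump subunits through a short promoter sequence.

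HepG2, an established human liver tumour line, was grown in flasks, and nanoparticle powders of titanium dioxide (TiO2) or cerium dioxide (CeO2) were added for 72 h before total RNA was hybridised to Illumina HT-12 v4 bead arrays. The study asks how materials of different vendors affect gene expression in these cells. The 3 TiO2 materials were A (Degussa), H (Mknano) and I (Acros), and the 5 CeO2 materials came from Nano Amor (B, M) and from Alfa Aesar (C, D, L). The series text speaks of 6 formulations and the labels carry 8 codes. Each code is taken here as a material, and neither text says which codes make up the 6. Each was given at 0.3, 3 and 30 µg/mL, with 4 flasks at 0.3 µg/mL and 5 at the higher doses (4 for M at 3 µg/mL), and 8 flasks without treatment served as the control of every material. The series text calls flasks of a treatment biological replicates, and 1 of the 120 arrays, whose labels disagree on its dose, entered no comparison.

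All values are log2 of the deposited intensities, which have the same median in every array (98.4, or 6.62 on the log2 scale), so a change is relative to the other genes of that array. A culture's RNA cannot tell a change in every cell from one in part of the cells. Hepatocyte markers such as albumin lay between 8.58 and 14.02 in the control mean, and those of leukocytes, endothelium and fibroblasts between 6.47 and 7.22, near the array median. On the first principal component (38.1% of the variance) 9 arrays stood apart: replicates 3 and 4 of M at 30 µg/mL, replicates 1 and 2 of H at 30 µg/mL, replicate 3 of A at 30, replicate 1 of L at 30, replicate 4 of I at 3, and replicate 3 of I and of L at 0.3 µg/mL. All 9 were treated arrays. Results are therefore given also without them, a choice made after seeing the data. The members' levels moved with them: in material H at 30 µg/mL ATP6V1A, the catalytic subunit of the pump, read 8.57 and 8.77 on the arrays that stood apart and 10.18, 10.17 and 10.14 on the others. What set these arrays apart was not tested.

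The promoters of 28 of the listed genes, 43 windows of 300 bases around their start sites, were matched in RefSeq (GRCh38.p14). The bases CACGTG, the core of the TFEB sequence and its own reverse complement, occurred in the windows of 10 of these 28 genes and in those of 8.77% of the 27305 genes in the table. The longer GTCACGTG, or CACGTGAC on the other strand, occurred in 9 of the 28 genes (ATP6V0B, ATP6V0D1, ATP6V1G1, CTSA, CTSD, GAA, LAMP1, MCOLN1 and VPS11) and in 2.93% of all genes. The full palindrome GTCACGTGAC, which contains both shorter motifs, was found in GAA, MCOLN1 and ATP6V1G1 and in 0.421% of all genes. By window the shares were 7.26%, 2.4% and 0.353% of 35116, and 11, 10 and 3 of the 43 windows of the listed genes. A match describes these letters and is not a measured binding site. Of the 17 members that rose in at least 1 material at 30 µg/mL, 7 hold GTCACGTG, 6 hold none in their windows (ATP6V1D, ATP6V1E1, ATP6V1F, GLA, GUSB and TFEB) and 4 are not in the table (VPS18, NAGLU, CTSB and ATP6V1B2). The promoters printed here were picked because they hold the motif, in 5 members that rose in at least 1 material at 30 µg/mL and in ATP6V1G1, which fell in M. Capitals mark each core CACGTG, extended as far as the longer motifs match, and the second site of ATP6V0B is the core alone. The positions given are those of the first base of each core.
GAA, chr17:80101331-80101630, plus strand, motif at positions -76 and -31 from the start site: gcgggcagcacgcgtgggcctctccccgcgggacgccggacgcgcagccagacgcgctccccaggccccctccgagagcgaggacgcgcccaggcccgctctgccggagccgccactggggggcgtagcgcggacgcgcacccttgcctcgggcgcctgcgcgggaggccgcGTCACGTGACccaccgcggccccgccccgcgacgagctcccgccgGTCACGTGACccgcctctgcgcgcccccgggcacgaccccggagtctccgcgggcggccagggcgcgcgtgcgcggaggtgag
CTSA, chr20:45891085-45891384, plus strand, motif at -42 and -25: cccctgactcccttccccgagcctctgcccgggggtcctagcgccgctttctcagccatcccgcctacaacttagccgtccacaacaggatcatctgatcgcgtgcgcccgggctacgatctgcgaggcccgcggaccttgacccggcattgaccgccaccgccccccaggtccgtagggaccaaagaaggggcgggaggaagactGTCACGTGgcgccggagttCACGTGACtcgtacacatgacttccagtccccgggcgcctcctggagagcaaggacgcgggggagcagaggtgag
CTSD, chr11:1763878-1764177, minus strand, motif at -47: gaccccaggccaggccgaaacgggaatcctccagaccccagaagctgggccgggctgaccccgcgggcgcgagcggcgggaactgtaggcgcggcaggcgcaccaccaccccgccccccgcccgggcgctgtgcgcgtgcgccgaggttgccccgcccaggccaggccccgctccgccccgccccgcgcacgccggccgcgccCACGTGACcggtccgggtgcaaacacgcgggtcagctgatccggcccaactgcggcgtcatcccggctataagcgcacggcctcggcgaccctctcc
MCOLN1, chr19:7522374-7522673, plus strand, motif at -41 and -14: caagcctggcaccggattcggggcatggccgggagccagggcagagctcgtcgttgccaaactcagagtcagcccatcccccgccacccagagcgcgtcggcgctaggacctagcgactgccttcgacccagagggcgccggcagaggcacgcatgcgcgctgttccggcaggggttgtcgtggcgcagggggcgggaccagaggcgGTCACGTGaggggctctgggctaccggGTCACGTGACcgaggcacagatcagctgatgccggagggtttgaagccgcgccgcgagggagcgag
ATP6V0B, chr1:43974710-43975009, plus strand, motif at -57 and -39: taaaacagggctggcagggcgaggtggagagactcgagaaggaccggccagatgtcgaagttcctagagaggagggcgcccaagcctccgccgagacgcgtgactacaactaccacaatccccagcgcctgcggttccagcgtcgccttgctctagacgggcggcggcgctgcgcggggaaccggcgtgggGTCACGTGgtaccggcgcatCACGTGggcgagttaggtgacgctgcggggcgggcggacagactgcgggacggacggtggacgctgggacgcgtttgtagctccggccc
ATP6V1G1, chr9:114587519-114587818, plus strand, motif at -58: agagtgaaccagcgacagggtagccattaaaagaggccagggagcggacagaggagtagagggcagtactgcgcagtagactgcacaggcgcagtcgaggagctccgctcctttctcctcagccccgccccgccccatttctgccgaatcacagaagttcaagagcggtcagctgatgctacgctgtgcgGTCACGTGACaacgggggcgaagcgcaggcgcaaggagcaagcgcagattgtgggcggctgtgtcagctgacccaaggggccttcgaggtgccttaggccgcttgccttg

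At 30 µg/mL the lysosomal genes did not move as a block. The enzymes GAA, CTSA and CTSD and the tethering protein VPS18 rose under several materials, the pump subunits mostly did not pass the test, and material M alone gave calls in many pump subunits, in both directions. A member was called where its limma adjusted p was under 0.05. Over the 8 materials 25 of the 39 members were called at least once and 14 in none. The share of all genes called at least once over the 8 materials was not computed, so this count has no background to be read against. All comparisons with control share the same 8 control arrays, so they are not independent of each other.

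In A, 6 members rose and 0 fell, or 15.4% of the 39, where 8.51% of all genes were called. In H, 6 rose and 3 fell (23.1%, against 9.46% of all genes), and in M 12 rose and 6 fell (46.2%, against 17.4%). In L, 5 rose (12.8%, against 6.9%), and in I 2 rose and 1 fell (7.69%, against 3.92%). B gave 1 rise (2.56%, against 0.743% of all genes), and C and D gave no member (0.0649% and 0.015% of all genes). An unadjusted limma p under 0.05 was found for 11 members in C and 0 in D. No share of all genes was computed at that looser threshold. Called genes were mostly bright ones, and 37 of the 39 members lie at or above the median level of all genes, TFEB and CTSZ being the exceptions. Among genes at or above that level the called share was 16.2% in A, 17.7% in H, 31.7% in M, 13.1% in L, 7.26% in I and 1.41% in B. Read against those genes, the members' shares in A, L and I were near the background. The members' median change was between -0.05 (B) and 0.10 (M), beside a median of all genes within 0.01 of 0 in each material.

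Without the 9 arrays 6 members rose and 3 fell in A, 2 and 1 in B, 2 and 0 in C, 2 and 2 in H, 4 and 3 in I, 5 and 1 in L and 5 and 3 in M, and none was called in D. These are 39 calls beside 42 with every array, and only 20 are in both sets. The median change of the members in M was then 0.01 and that in H -0.03, beside 0.10 and 0.04 with every array. The share of all genes called was then 9.69% in A, 4.27% in B, 1.46% in C, 0.434% in D, 3.94% in H, 10.2% in I, 6.63% in L and 8.09% in M. H and M, the materials with 2 such arrays each, lost calls, and A, B, C, I and L gained some, although B, C and I hold none of these arrays at 30 µg/mL.

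**Figure D1:**
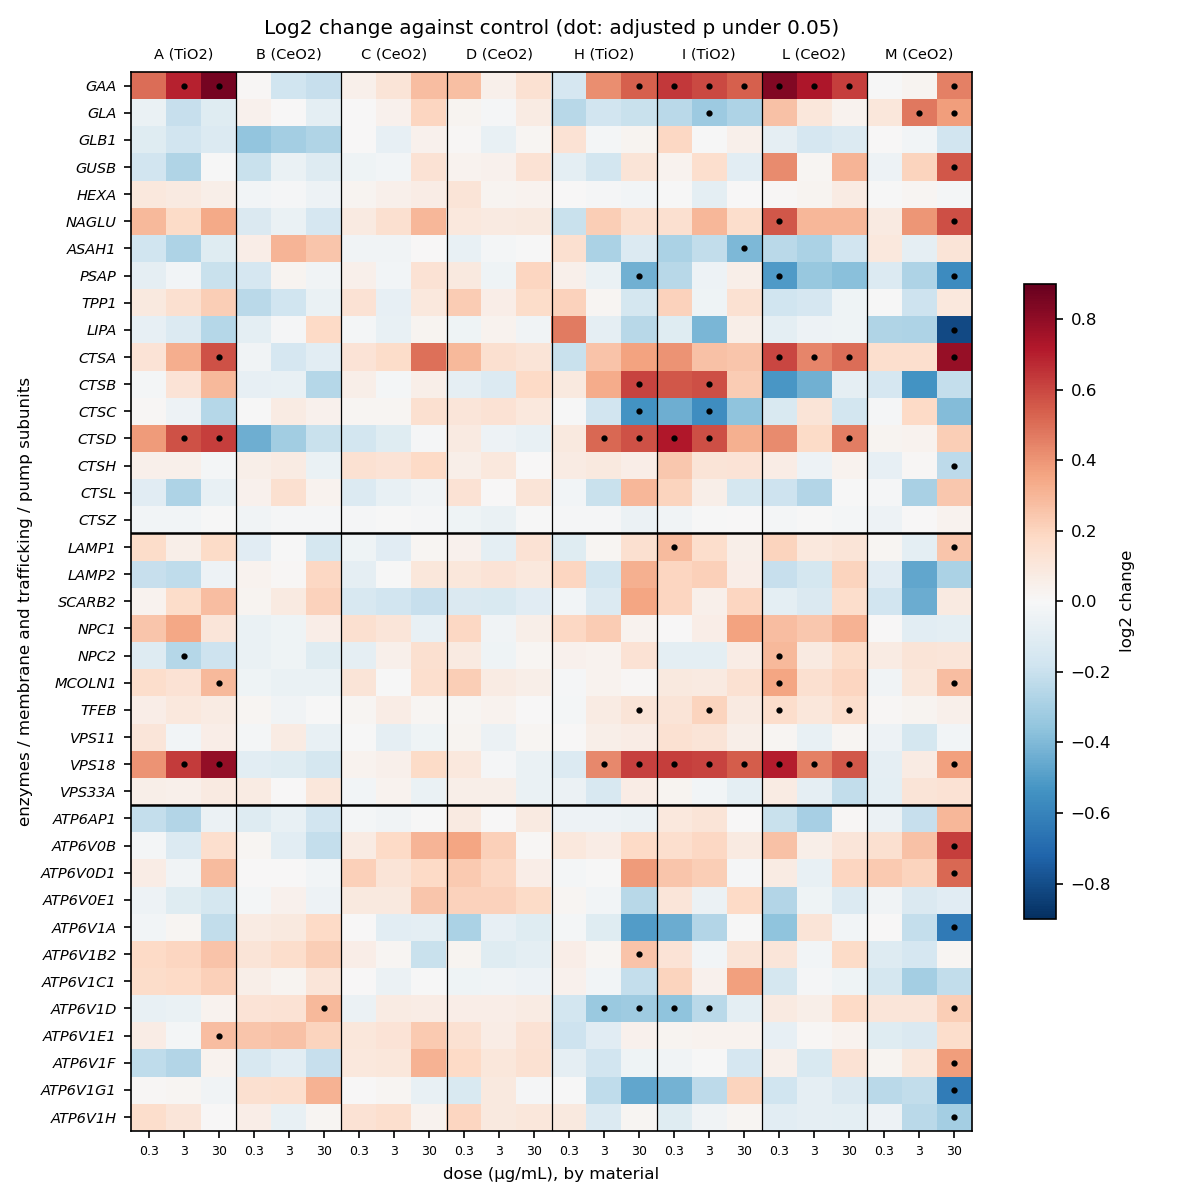
Log2 change against control of the 39 members (rows, in 3 classes) at each dose of the 8 materials (columns), red for higher and blue for lower, with a dot where limma's adjusted p was under 0.05. VPS18 and GAA carry the most dots of any row (11 and 10 of 24 groups), no dot stands in C or D, and 7 of the 14 dots of the pump subunits stand in M at 30 µg/mL.

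GAA, the acid alpha-glucosidase that degrades glycogen in lysosomes, rose in 5 of the 8 materials. Its control arrays ran from 7.56 to 8.10 with a median of 7.65, and controls 2 and 8 (8.10 and 8.08) lay above the other 6. In A the arrays read 8.72, 8.33, 9.16, 8.53 and 8.31, all above every control. In L they read 8.83, 8.24, 8.48, 8.64 and 7.70, with replicate 5 inside the control range. The levels in H (8.17, 8.54, 8.04, 8.30 and 8.38) and in I (8.54, 8.21, 8.36, 8.04 and 8.29) overlapped the highest controls with 1 array each. In M the arrays read 8.12, 7.95, 8.64, 8.28 and 8.03, overlapping the controls with 2. The rise was 0.86 ± 0.13 (log2 change ± SE) in A, 0.63 in L, 0.54 in both H and I and 0.45 in M, with limma adjusted p between 2.72e-06 (A) and 0.0113 (M). GAA still passed without the 9 arrays in A (0.72), L (0.51), H (0.49) and I (0.54), and did not in M (0.28, adjusted p = 0.286). A second, dimmer GAA probe, tested on its own, gave rises of 0.84, 0.76, 0.47, 0.49 and 0.51 in A, L, H, I and M. In B, where the GAA arrays lay between 7.43 and 7.73, and in C (7.86 to 8.20) and D (7.85 to 7.94) no change was called.

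CTSA, the protective protein that stabilises lysosomal beta-galactosidase and neuraminidase, had control values from 8.57 to 9.51, a wide range with a median of 9.02. It read 9.61, 9.47, 10.13, 9.77 and 9.79 in M, where it was the largest rise of any member, 0.78 ± 0.13 (limma adjusted p = 4.22e-06). In A it read 9.48, 9.55, 10.03, 9.41 and 9.27 (0.58) and in L 9.87, 9.30, 9.56, 9.63 and 9.0 (0.50). In M 4 of the 5 arrays stood above the highest control, in L 3 and in A 2, so the groups overlapped in all 3 materials. The rise passed without the 9 arrays in M (0.65), A (0.46) and L (0.40, adjusted p = 0.0468), and C then passed as well (0.49, adjusted p = 0.022, beside 0.126 with all arrays).

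CTSD, the aspartic protease cathepsin D, ran from 8.59 to 9.21 in the controls (median 8.97). In A it read 9.44, 9.47, 10.10, 9.39 and 9.31, above every control, and rose by 0.62 ± 0.15 (limma adjusted p = 0.00176). In H it read 9.79 and 9.95 on the arrays that stood apart and 9.16, 9.30 and 9.27 on the others, a rise of 0.57. In L it read 9.98, 9.35, 9.31, 9.37 and 8.91, a rise of 0.46, with replicate 5 among the controls. The rise passed without the 9 arrays in A (0.49) but not in H (0.33, adjusted p = 0.181) or L (0.32, adjusted p = 0.118).

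**Figure D2:**
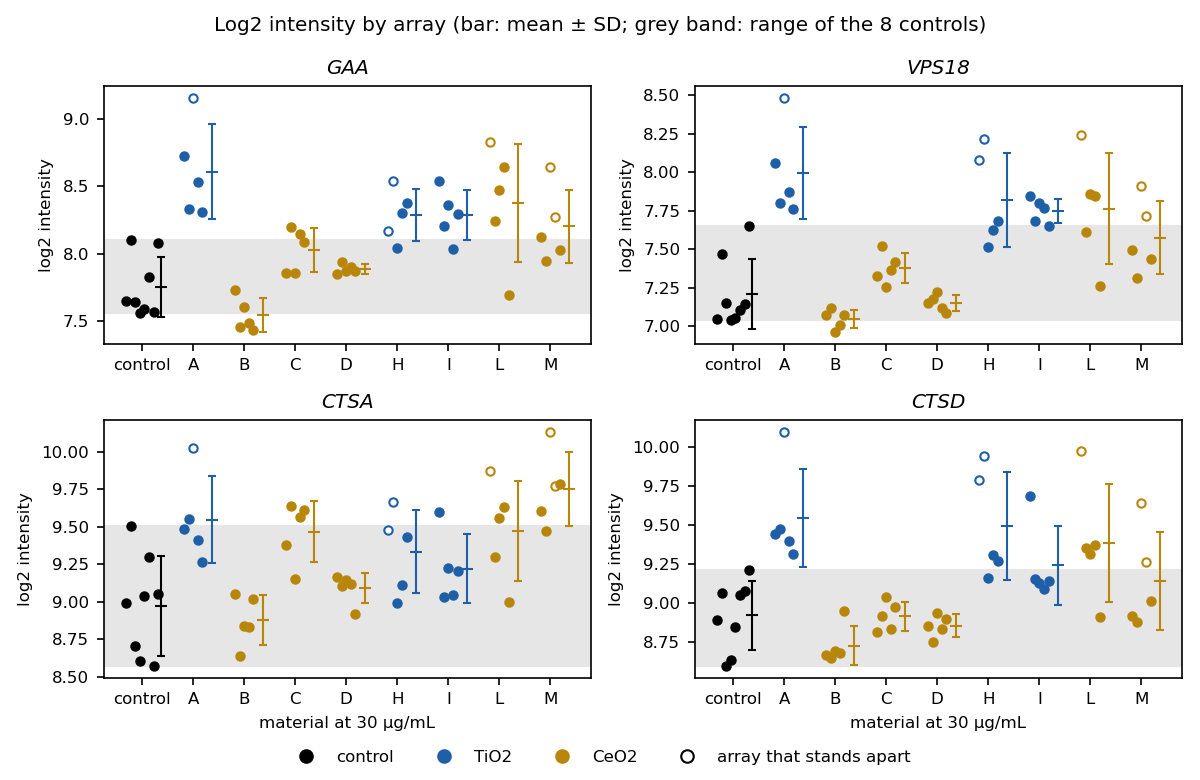
Log2 intensity of GAA, VPS18, CTSA and CTSD on each array of the control (black) and of the 8 materials at 30 µg/mL (blue TiO2, ochre CeO2), open circles marking arrays that stood apart, bars the mean ± SD and the grey band the range of the 8 controls. In A the 5 arrays of GAA, VPS18 and CTSD lie above that band, and in B and D they lie within it or below it.

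Of the other enzymes, NAGLU, which degrades heparan sulfate, and GLA, which removes alpha-galactose from glycolipids, rose at 30 µg/mL in M alone. NAGLU also rose in 1 lower dose group. NAGLU controls ran from 7.75 to 8.16 (median 7.93), and its M arrays read 8.31, 8.36, 9.03, 8.43 and 8.49, all above the controls, a rise of 0.58 ± 0.12 (limma adjusted p = 2.01e-04, and 0.45 with adjusted p = 0.0263 without the 9 arrays). GLA controls ran from 7.71 to 8.52 (median 8.17), and its M arrays read 8.40, 8.43, 8.79, 8.43 and 8.65, a rise of 0.37 ± 0.10 that overlapped the controls. It missed the threshold without the 9 arrays (0.33, adjusted p = 0.0558), while at 3 µg/mL of M, a group that holds none of them, GLA read 8.68, 8.54, 8.72 and 8.63, above every control, and rose by 0.48 (adjusted p = 0.00461). GUSB, beta-glucuronidase, was called in M (0.56) on arrays that read 9.82 and 9.77 where they stood apart and 8.43, 8.48 and 8.68 elsewhere, and its change without those was 0.06.

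LIPA, the acid lipase that hydrolyses cholesteryl esters and triglycerides, was the largest fall of any member at 30 µg/mL. Controls ran from 8.17 to 8.83 (median 8.57), and in M the arrays read 8.26, 8.11, 7.21, 7.27 and 7.88, with replicates 3 and 4, which stood apart, lowest and 1 array inside the control range. LIPA fell by 0.81 on the log2 scale (SE 0.15, limma adjusted p = 1.66e-05), and by 0.47 (adjusted p = 0.00527) without the 9 arrays. On the arrays that stood apart it read 7.45 in A, 8.28 and 7.84 in H and 7.81 in L, of which the 8.28 lies inside the control range, and it was not called in these materials.

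PSAP, the precursor of the saposins that present lipids to lysosomal enzymes, ran from 11.64 to 12.06 in the controls (median 11.86). It read 11.55, 11.73, 11.07, 10.53 and 11.63 in M and 11.06, 11.23, 11.44, 11.76 and 11.69 in H. Both groups lay mostly below the controls and overlapped them with 1 array in M and 2 in H. PSAP fell by 0.57 in M (limma adjusted p = 0.00369) and by 0.43 in H (adjusted p = 0.0495). Without the 9 arrays the changes were -0.23 and -0.24, with adjusted p of 0.078 and 0.0939. A second PSAP probe gave changes of -0.65 in M and -0.54 in H and was called in both when all probes were tested together, a fit in which the brighter probe missed the threshold in H (adjusted p = 0.055).

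ASAH1, acid ceramidase, read high on several of the arrays that stood apart. Its controls ran from 7.04 to 7.43 (median 7.30), within 1 log2 unit of the array median, which limits how far its level can be seen to fall. In I, which has no such array at 30 µg/mL, it read 6.87, 6.83, 6.88, 6.81 and 6.91, below every control, and fell by 0.41 (SE 0.11, limma adjusted p = 0.0134). In A it read 6.95, 7.12, 6.94 and 6.94 on 4 arrays and 7.84 on the one that stood apart, and in M 7.87 and 7.78 on the 2 that stood apart beside 7.07, 7.13 and 7.08. With all arrays ASAH1 was called in 1 of 24 groups, and without the 9 in 12 of 24. At 30 µg/mL it was then lower in A (-0.28), H (-0.29), I (-0.41) and L (-0.24) and higher in B (0.25), where the arrays read 7.54, 7.50, 7.50, 7.58 and 7.45, all above the controls. A second ASAH1 probe, with a mean level of 6.77 over all arrays, was not called in I (change -0.06).

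At 30 µg/mL the cathepsins B and C, proteases of the lysosome, were called in H with all arrays and not without the 9. CTSC, dipeptidyl peptidase I, had controls from 8.75 to 9.25 (median 9.16) and read 8.07 and 7.95 on those arrays and 8.85, 8.86 and 9.19 on the others. It fell by 0.54 in H (limma adjusted p = 0.018), with a change of -0.15 without them, while in I, which holds none of them at 30 µg/mL, a change of -0.36 was not called with all arrays (adjusted p = 0.219) and passed without the 9 (adjusted p = 3.10e-04). Of its other probes 1, at a mean level of 7.69, was called in H (-0.51), I (-0.65) and A (-0.47) in the fit of all probes and had a change of 0.30 in M, where the brightest had -0.39, neither of them called. CTSB rose by 0.61 in H, where the same 2 arrays read 12.34 and 12.60 and the others 11.27, 11.32 and 10.80, and its change without them was 0.08. A second CTSB probe, at a mean level of 9.93, changed by 0.38 in H and was not called in the fit of all probes (limma adjusted p = 0.133). In M, CTSB changed by -0.21 with all arrays (adjusted p = 0.496) and by -0.62 without the 9 arrays (adjusted p = 3.80e-04). At 3 µg/mL of I, CTSB rose (0.58) and CTSC fell (-0.56), and both calls also passed without the 9 arrays. CTSH was called in M (-0.24, adjusted p = 0.044) and missed the threshold without the 9 arrays (-0.23, adjusted p = 0.108) and in the fit of all probes (adjusted p = 0.0518), where a dimmer CTSH probe was called higher in A (0.29). GLB1, HEXA, TPP1, CTSL and CTSZ were called at 30 µg/mL in none of the 8 materials with all arrays. With the 9 left out, CTSL passed in A (-0.31, adjusted p = 0.0191), GLB1 in B (-0.27, adjusted p = 0.0486) and GLA in I (-0.28, adjusted p = 0.0446). A dim CTSL probe was called in A (-0.21) and L (-0.17) in the fit of all probes.

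**Figure D3:**
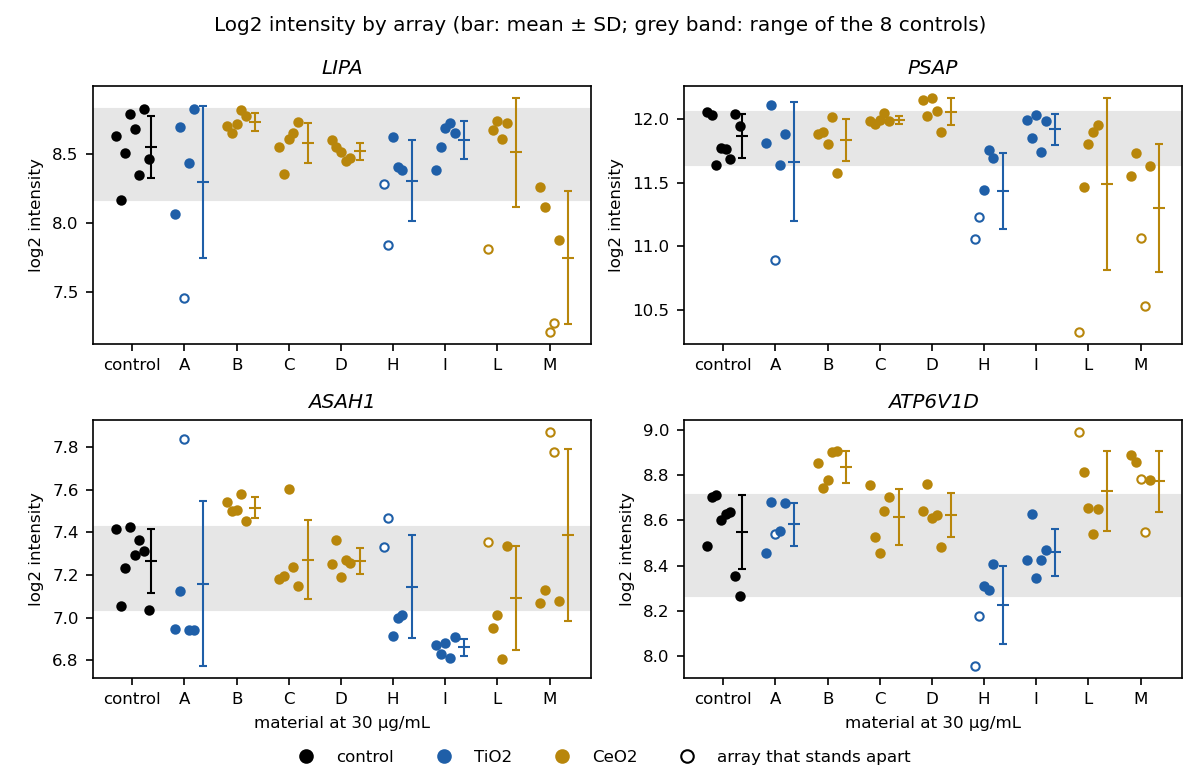
Log2 intensity of LIPA, PSAP, ASAH1 and ATP6V1D on each array of the control (black) and of the 8 materials at 30 µg/mL (blue TiO2, ochre CeO2), with open circles for arrays that stood apart, bars for the mean ± SD and a grey band for the control range. Open circles lie low for LIPA and PSAP and high for ASAH1 beside the filled circles of A, H and M.

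Among membrane and trafficking proteins VPS18 was called most often of all members. It is a core subunit of the HOPS and CORVET complexes, which tether vesicles before they fuse with endosomes and lysosomes. Its controls ran from 7.04 to 7.65 (median 7.12), with controls 2 and 8 (7.47 and 7.65) above the other 6. In A it read 8.06, 7.80, 8.49, 7.87 and 7.76 and in I 7.84, 7.68, 7.80, 7.77 and 7.65, all above every control in A, with the lowest array of I level with the highest control. In H it read 8.08, 8.21, 7.51, 7.62 and 7.68, in L 8.24, 7.61, 7.86, 7.84 and 7.26, and in M 7.49, 7.31, 7.91, 7.72 and 7.44. These 3 groups overlapped the controls, and in H, L and M the arrays that stood apart were the highest of their group. The rise was 0.79 ± 0.12 in A, 0.62 in H, 0.56 in L, 0.54 in I and 0.37 in M, with limma adjusted p from 1.88e-06 (A) to 0.0237 (M). It passed without the 9 arrays in A (0.67), I (0.54), L (0.44) and H (0.40) and not in M (0.21, adjusted p = 0.368). VPS11 and VPS33A, other subunits of the same complexes, were called in no material.

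MCOLN1, the calcium channel of the lysosomal membrane, ran from 6.82 to 7.11 in the controls (median 6.96), close to the array median. It read 7.24, 7.17, 7.49, 7.12 and 7.14 in M, above every control, and rose by 0.27 ± 0.07 (limma adjusted p = 0.00176, and 0.23 with adjusted p = 0.0299 without the 9 arrays). In A it read 7.21, 7.09, 7.66, 7.13 and 7.13, a rise of 0.29 that missed the threshold without them (0.18, adjusted p = 0.0535). The mRNA of TFEB itself lay at the array median, with controls from 6.52 to 6.76 (median 6.64). Its arrays read 6.93, 6.78, 6.82, 6.74 and 6.74 in L (0.16, limma adjusted p = 0.0044) and 6.82, 6.80, 6.64, 6.71 and 6.82 in H (0.12, adjusted p = 0.0456), overlapping the controls in both. At that level signal over background limits the reading, and without the 9 arrays TFEB passed in L (0.13, adjusted p = 0.0371) and not in H (0.08). LAMP1, a main glycoprotein of the lysosomal membrane, was called in M (0.25) and not without the 9 arrays (0.12, adjusted p = 0.397). LAMP2, SCARB2, NPC1 and NPC2 were called in no material at 30 µg/mL with all arrays. With the 9 left out, NPC1, the cholesterol exporter, passed in A (0.27), I (0.36) and L (0.52), NPC2, which hands cholesterol to it, in A (-0.26), and LAMP2, another main membrane glycoprotein, in M (-0.54). Another of the LAMP2 probes was called in M (-0.91) and H (-0.72) in the fit of all probes, and the brightest one, which stands for the gene, changed by -0.28 and 0.32 there.

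The pump subunits gave 7 calls in M, 2 in H, 1 each in A and B and 0 in C, D, I and L. In M, ATP6V0B, ATP6V0D1, ATP6V1D and ATP6V1F rose and ATP6V1A, ATP6V1G1 and ATP6V1H fell. ATP6V0B, a proton-binding subunit of the membrane ring, had controls from 10.03 to 10.87 (median 10.26) and read 10.84, 10.65, 11.34, 11.18 and 10.83. It rose by 0.62 ± 0.13 (limma adjusted p = 3.11e-04), and by 0.43 (adjusted p = 0.0159) without the 9 arrays, with every treated array above all controls but the highest. A second ATP6V0B probe, dimmer at 8.69 over all arrays, was not called in M and had a change of -0.20. ATP6V1G1, a subunit of the stalk, ran from 10.53 to 11.14 in the controls (median 10.78) and read 10.69, 10.38, 9.62, 9.46 and 10.63 in M, so that 2 of the 5 arrays lay inside the control range. Its fall of 0.63 (limma adjusted p = 0.00668) rested on the 2 lowest arrays, both of which stood apart, and the change without them was -0.22 (adjusted p = 0.315).

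ATP6V1A followed the same arrays. It read 10.03, 9.97, 8.52, 8.68 and 9.97 in M against controls of 9.69 to 10.30 (median 10.15), a change of -0.64 (adjusted p = 0.0406) that became -0.08 without the arrays that stood apart. ATP6V0D1, which joins the sectors, read 8.97, 9.0, 9.97, 9.73 and 9.13 in M against controls of 8.66 to 9.08 (median 8.79), a change of 0.52 that became 0.19 without them. ATP6V1H fell by 0.30 (-0.19 without them), and its second probe, at a mean level of 6.87, had a change of 0.06 that was not called. Of the 7 calls in M, ATP6V0B and ATP6V1D passed without the 9 arrays and the other 5 did not.

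**Figure D4:**
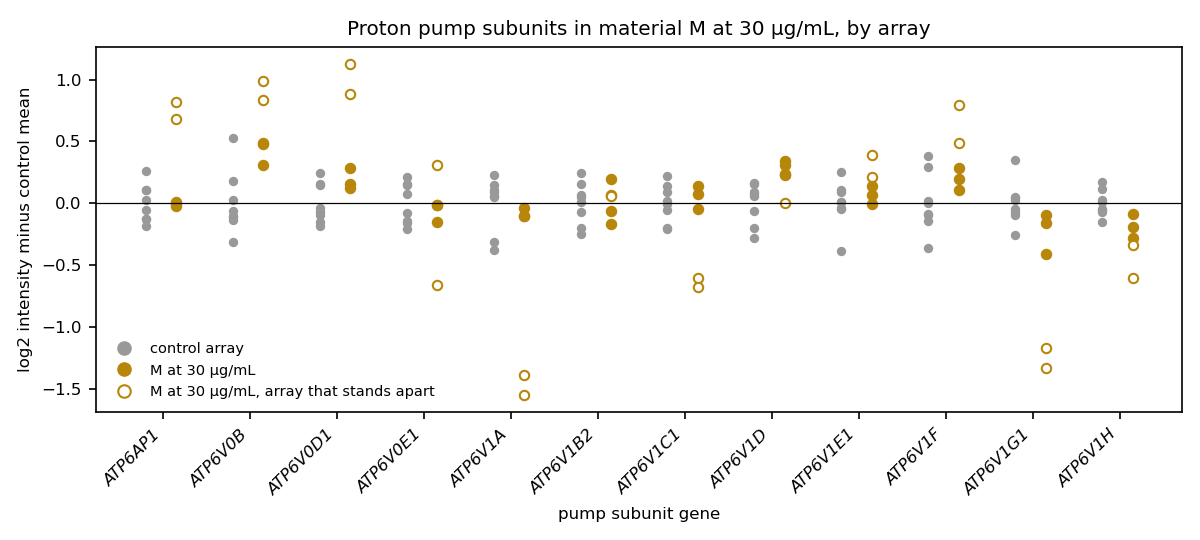
Log2 intensity minus the control mean for the 12 measured pump subunits on each control array (grey) and each array of M at 30 µg/mL (ochre, open where the array stood apart). The 2 open circles lie far above 0 for ATP6AP1, ATP6V0B and ATP6V0D1 and far below it for ATP6V1A, ATP6V1C1 and ATP6V1G1, while the 3 filled circles lie near the controls for most subunits.

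ATP6V1D, a subunit of the central rotor, rose in B and M and fell in H at 30 µg/mL. Its controls ran from 8.27 to 8.71 (median 8.61). It read 8.85, 8.75, 8.78, 8.90 and 8.91 in B, above every control, and 8.89, 8.86, 8.79, 8.55 and 8.78 in M, with 1 array inside the control range. It read 7.95, 8.18, 8.31, 8.29 and 8.41 in H, at the low end of the controls and below. It rose by 0.29 ± 0.07 in B (limma adjusted p = 0.0309) and by 0.22 in M (adjusted p = 0.0209) and fell by 0.32 in H (adjusted p = 0.00155). Without the 9 arrays it passed in B (0.29, adjusted p = 0.00464) and M (0.29, adjusted p = 0.00661) and not in H (-0.21, adjusted p = 0.0998). The H group at 3 µg/mL, with none of the 9 arrays, read 8.26, 8.18, 8.09, 8.23 and 8.30 and was called with and without them (-0.34). ATP6V1E1 rose in A (0.28) and ATP6V1B2 in H (0.26), both not without the 9 arrays, and ATP6AP1, ATP6V0E1 and ATP6V1C1 were called in no material at 30 µg/mL with all arrays. A second ATP6V1E1 probe, at a mean level of 10.30, changed by 0.41 in A. It was not called in the fit of all probes (limma adjusted p = 0.0638). With the 9 left out, ATP6V1C1 passed in A and I (both 0.37), ATP6V1E1 in C (0.24) and ATP6AP1, an accessory protein, in H (-0.31).

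The 8 materials at 30 µg/mL were also compared with each other, with no use of the controls. By limma's F test 29 of 39 members differed among materials at adjusted p under 0.05, where 37.6% of all genes did and 68.8% of genes at or above the median level, and 31 did without the 9 arrays (39.8% of all genes). VPS18 had the largest F of the members (12.7, adjusted p = 1.87e-09), from a mean of 7.05 in B to 8.00 in A. ATP6V1D followed (11.6), lowest in H (8.23) and highest in B (8.84), and then GAA (9.69), from 7.54 in B to 8.61 in A. GLA (8.20) ran from 7.89 in I to 8.54 in M, and CTSA (7.27) from 8.88 in B to 9.75 in M. All 5 passed without the 9 arrays too. B gave the lowest mean for VPS18, GAA and CTSA, and it shares its labelled vendor and oxide with M, which gave the highest mean for GLA and CTSA.

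No member was called between the oxides. With each labelled code as 1 value (3 TiO2 against 5 CeO2 means, which the test takes as independent), 0 of 39 members and 0% of all genes passed limma's test. The smallest unadjusted p values belonged to CTSB (TiO2 minus CeO2 0.44 ± 0.13, adjusted p = 0.653), ATP6V1D (-0.29 ± 0.09, adjusted p = 0.665) and VPS11 (0.08 ± 0.02, adjusted p = 0.684). At an unadjusted p under 0.05 there were 8 members, and no share of all genes was computed at that threshold.

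At the lower doses 32 member calls fell in 7 of the 16 groups, where 2.28% of all gene tests over these groups were called. L at 0.3 µg/mL and I at 3 µg/mL had 8 calls each, 20.5% of the 39, beside 12.2% and 7.72% of all genes. I at 0.3 had 5 (12.8%, beside 5.57%) and A at 3 had 4 (10.3%, beside 4.39%). L and H at 3 had 3 each (7.69%, beside 4.06% and 1.37%) and M at 3 µg/mL had 1 (2.56%, beside 0.958%). No share among genes at or above the median level, where 37 of the 39 members lie, was computed for these groups. Among these calls, 3 were falls in I at 3 µg/mL, and 1 was a fall in each of A and H at 3 and I and L at 0.3 µg/mL. ATP6V1D fell in 3 of these groups, and PSAP, CTSC, GLA and NPC2 fell in 1 each. VPS18 rose in 6 of these groups and GAA in 5. In L at 0.3 µg/mL, the lowest dose, GAA read 8.70, 8.64, 8.73 and 8.26, above every control, and rose by 0.83 ± 0.14 (limma adjusted p = 1.1e-05, and 0.78 without the 9 arrays). VPS18 read 7.95, 7.99, 8.03 and 7.68 there, also above every control, and rose by 0.70. The mean levels in L at 0.3 µg/mL, 8.58 for GAA and 7.91 for VPS18, were no lower than the 8.38 and 7.76 at 30 µg/mL. CTSD, which was not called in I at 30 µg/mL (0.32), rose in I at 0.3 µg/mL on arrays of 9.75, 9.60, 9.77 and 9.45 (0.72, adjusted p = 0.00145) and at 3 µg/mL (0.58). The lower doses gave 63 calls without the 9 arrays, with 3.94% of all gene tests called.

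Single arrays departed from this at both ends. Replicate 5 of L read 7.68 for GAA and 7.05 for VPS18 at 3 µg/mL, at the level of the controls, where the other 4 arrays of that group lay between 8.56 and 8.81 for GAA and between 7.72 and 7.91 for VPS18. In A at 0.3 µg/mL replicate 2 read 7.69 for GAA and 7.14 for VPS18, beside 8.37 to 8.57 and 7.64 to 7.83 on the other 3.

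Within a material, 30 was compared with 0.3 µg/mL, a contrast that uses no control. With all arrays it gave calls in H and M and in no other material. The shares given here are of all genes, and none was computed for genes at or above the median level. In H, where 8% of all genes were called, GAA (0.68 ± 0.16), VPS18 (0.74 ± 0.14) and CTSA (0.56 ± 0.15) rose and LIPA (-0.72 ± 0.17) and TPP1 (-0.37 ± 0.12), a peptidase of the lysosome, fell. H at 0.3 µg/mL read 7.74, 7.56, 7.63 and 7.49 for GAA and 7.13, 7.02, 7.00 and 7.19 for VPS18, like most controls, and every array at 30 µg/mL lay above these. LIPA read 8.98, 9.02, 9.0 and 9.10 there, above every control, a difference from control of 0.47 that was not called with all arrays (adjusted p = 0.495) and passed without the 9 (adjusted p = 0.0346, with 0.195% of all genes called), none of which is in this group. In H, with 5.51% of all genes called without the 9 arrays, the changes then passed for GAA (0.64), VPS18 (0.52), LIPA (-0.55), TPP1 (-0.49) and also ASAH1 (-0.43) and not for CTSA (0.41, adjusted p = 0.138). In L CTSB then passed (0.68, adjusted p = 0.0172), where 0.12% of all genes did. In M, with 7.61% of all genes called, NAGLU, CTSA, MCOLN1, VPS18 and ATP6V0B rose and LIPA fell, and none of these 6 passed without the 9 arrays (1.66% of all genes).

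**Figure D5:**
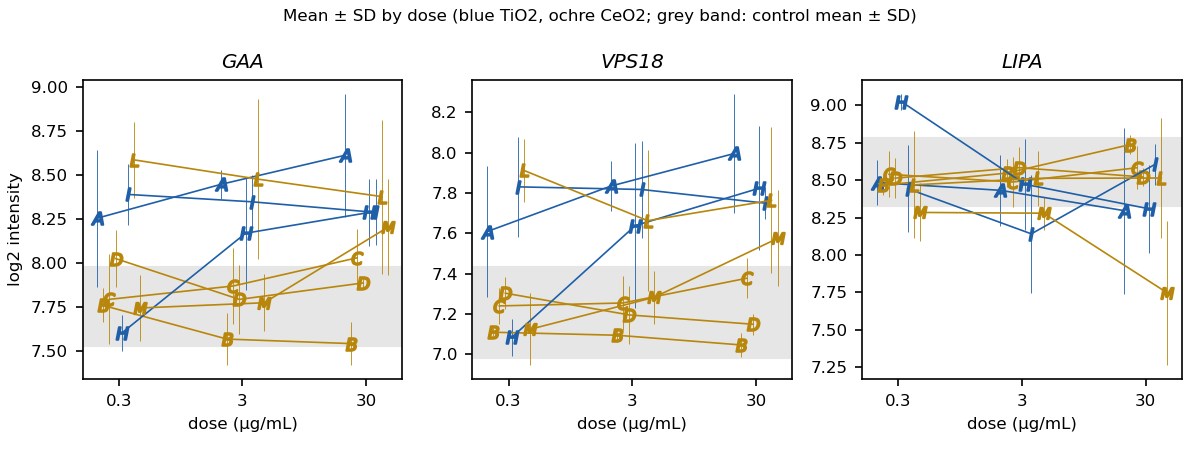
Mean ± SD of the log2 intensity of GAA, VPS18 and LIPA at 0.3, 3 and 30 µg/mL, 1 line per material (letters; blue TiO2, ochre CeO2), with the control mean ± SD as a grey band. GAA and VPS18 climb with dose in H and stay high at every dose in I and L, and LIPA falls in M from 8.28 at 0.3 µg/mL to 7.75 at 30 µg/mL.

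Other genes of the pathway were taken from 6 lists of 102 genes, 91 of them measured, none a member. At 30 µg/mL 13 of the 91 rose and 3 fell in A, 15 rose and 13 fell in M, 7 rose and 9 fell in H, 7 rose and 2 fell in L, 2 rose and 1 fell in I, and none was called in B, C or D. These are 17.6% of the 91 in A and in H, 30.8% in M, 9.89% in L and 3.3% in I, beside 8.51%, 9.46%, 17.4%, 6.9% and 3.92% of all genes in A, H, M, L and I. Beside the genes at or above the median level (16.2%, 17.7%, 31.7%, 13.1% and 7.26%) only the 17.6% in A was the higher of its pair. The 91 genes were not limited to that level, so these pairs set unlike sets of genes side by side. Without the 9 arrays the numbers were 12 and 3 in A, 6 and 5 in M, 1 and 5 in H, 6 and 2 in L, 9 and 3 in I, 5 and 2 in B and 1 and 1 in C. The genes named from the lists gave 39 calls, of which 22 passed without the 9 arrays. Among further enzymes, SGSH, which removes sulfate from heparan sulfate, was called in A (0.82 ± 0.19), H (0.61), L (0.76) and M (0.92), and without those arrays in A (0.56), L (0.47) and M (0.49) but not in H (0.27). MAN2B1, the lysosomal alpha-mannosidase, was called in A (0.28), H (0.28), I (0.33) and L (0.29), and then in A and I but not in H or L. FUCA1, the alpha-fucosidase, fell in A (-0.27) and H (-0.34) and passed in both without them. Of the tethering list VPS39, another HOPS subunit, was called in A (0.38) and H (0.36), and VPS33B in A (0.21) and M (-0.16). Both then passed in A, while VPS39 in H (0.17) and VPS33B in M (-0.09) did not. STX8, a fusion protein of late endosomes, was called in A (-0.36), H (-0.37), L (-0.32) and M (-0.27), and then in A (-0.28) and H (-0.30) but not in L (-0.19) or M (-0.06).

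MTOR, the kinase that senses nutrients at the lysosome and keeps TFEB out of the nucleus, was called in A (0.42), H (0.43), L (0.33) and M (0.27), and without the 9 arrays in A (0.38), H (0.36) and L (0.27) but not in M (0.16). Its partner RPTOR was called in A and H (both 0.23), and FLCN, a regulator of the same pathway, in L (0.18) and M (0.23). None of these 4 calls held without those arrays, where RPTOR changed by 0.19 and 0.20 and FLCN by 0.14 and 0.11. Of the sorting genes GNPTAB, which makes the mannose 6-phosphate tag, was called in A (0.34), H (0.26) and M (0.26), and then in A alone (0.25). GGA2, a sorting adaptor, rose in I (0.27) and fell in M (-0.33), the receptor M6PR fell in I (-0.35), and all 3 calls held. Among other pump subunits ATP6V0A2 rose in A (0.29, and 0.23 without those arrays). ATP6V1B1 (-0.19) and ATP6AP2 (-0.69), a pump accessory protein, were called in M and not without them, with changes of -0.15 (adjusted p = 0.0608) and -0.18 (adjusted p = 0.440). Of the membrane proteins CLCN7, the chloride and proton exchanger, was called in M (0.66, then 0.39) and SLC38A9, an amino acid sensor, in M (-0.47, then -0.32), and both held. PIP4P1, a lipid phosphatase, was called in A (0.41) and H (0.48), and then in A (0.32) but not in H (0.25).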

How the data were processed

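RNA from HepG2 flasks was hybridised to 120 Illumina HT-12 v4 arrays. The authors deposited linear probe intensity, computed using beadarray 2.4.1 (R 2.14.0) per the submitters' processing notes. How background was corrected, how arrays were normalized and which slide held them is not stated in those notes, and alternatives for these steps were not run. Detection p values were not used.

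Groups came from the labels. Of 48107 probes 30113 carry 1 gene symbol in the platform annotation, 8 several and 17986 none, and 30074 matched a gene by Entrez identifier. The brightest probe over all arrays stood for a gene. Log2 values of 20046 genes were fitted with limma 3.58.1 in R 4.3.3 (lmFit, eBayes, 1 fit over 25 groups, prior degrees of freedom 2.15, Benjamini-Hochberg within each comparison, threshold 0.05). The oxides were compared on material means. The fit was tested on simulated data with noise drawn independently for each gene and array. That test does not cover arrays on which many genes shift together, such as the 9 that stood apart. Precision is limited by the few arrays of a group. Same-numbered arrays deviated together with a median correlation of 0.0128, so the replicate numbers were not used as pairs.

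Named with values per array are the 14 members called in the most materials at 30 µg/mL, the largest called rise and fall of each material and the 5 largest F. The calls of the dose contrast, the 3 smallest oxide p and 3 genes per pathway list are also named, many of them without values per array. Other members are named to account for all 39, after their values were seen. Members and lists were chosen with earlier results of these data known. The promoters are RefSeq sequences (250 bases before to 50 after each start). Figures were drawn with matplotlib from tables written by pandas.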

Additional observations from a re-analysis of the deposited data

Results flagged for a closer look

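The check took 14 named members, each in the 8 controls and in the 5 arrays of every material at 30 µg/mL. These 126 groups read the same arrays for each member, so they are not independent of each other. In them, 11 had 1 array far from the others, where chance alone marks about 1 in 20 independent groups. Of the 11, 5 were arrays that stood apart on the first principal component. They were replicate 3 of A at 30 µg/mL for CTSD (10.1, the next array at 9.47), MCOLN1 (7.66, next 7.21) and ASAH1 (7.84, next 7.12), replicate 1 of L for LIPA (7.81, next 8.61) and replicate 3 of M for NAGLU (9.03, next 8.49). The other 6 were not among the 9 arrays. CTSD was high on 1 array of I (9.69, next 9.16) and of B (8.95, next 8.69), and CTSA low on 1 array of D (8.91, next 9.11). MCOLN1 was high on 1 array of B (6.98, next 6.89) and of D (7.10, next 7.01), and ASAH1 was high on 1 array of C (7.60, next 7.24).

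The 8 materials at 30 µg/mL differed from each other by limma's F test for VPS18 (F = 12.7), ATP6V1D (11.6), GAA (9.69), GLA (8.20) and CTSA (7.27), the 5 largest values among members. What sets the materials apart was not tested.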

How the results depend on the processing

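Of the 42 called changes at 30 µg/mL none reversed under any alternative run. All 42 passed when arrays were centred on their mean, 40 with the mean over a gene's probes, 39 with a trend and robust prior, 32 with the replicate block, 12 when each material was fitted alone with the controls and 20 without the 9 arrays. Members called at 30 µg/mL moved by over 1.5 times as follows, and the cause was not tested. Separate fits, which estimate the spread from 13 arrays, called 3 members in A, 0 in B, 0 in H, 6 in I, 0 in L and 6 in M. The trend and robust prior and the replicate block each called 0 in B, and the block moved no other count that far. The replicate numbers did not pair the arrays: 9 arrays correlated best with an array of their own number. Leaving out genes below the median level gave 18 calls for 30 against 0.3 µg/mL, where 11 were called, with fewer genes tested. Without the 9 arrays, chosen after seeing the data, the counts were 3 in B, 2 in C, 4 in H, 7 in I and 8 in M, 63 at the lower doses and 6 for the dose contrast.

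Leaving out 1 array in turn gave 5 to 7 calls in A, 0 to 1 in B, 0 to 1 in C, 0 to 0 in D, 2 (without replicate 2) to 14 (without replicate 4) in H, 2 to 4 in I, 3 (without replicate 1) to 8 (without replicate 5) in L and 8 (without replicate 3) to 20 (without replicate 5) in M. It gave 26 to 32 calls for the F test. PSAP in H and CTSH in M each missed the threshold in 9 of 13 such fits, and ATP6V1D in B in 6. At the lower doses 1 control, or 1 replicate number of all 16 groups at once, was left out. That gave 22 (without replicate 3) to 36 (without control 8) calls. For the dose contrast 1 replicate number was left out of every treated group at once, with 4 to 16 calls. The oxides gave 0 to 0, where each material was left out.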

Other observations

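Controls 2 and 8 had the highest levels of both GAA (8.10 and 8.08) and VPS18 (7.47 and 7.65) among the 8 controls, where the other 6 ran from 7.56 to 7.83 and from 7.04 to 7.15. Without control 8 the change of VPS18 in A was 0.85, and that of ATP6V1D in B was 0.25 and no longer passed.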
